A study of Mus musculus with 9 samples.

Results

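The mitochondrial genome gives rise to 37 RNAs, and all 37 have a row in the table of molecules counted in 9 single cells of the mouse hypothalamus. They were taken as every row whose symbol starts with mt-, 37 of 24378 gene rows, and split by symbol into 2 ribosomal RNAs (mt-Rnr1, mt-Rnr2), 13 messenger RNAs (mt-Nd, mt-Co, mt-Atp, mt-Cytb) and 22 transfer RNAs (mt-T and a letter). The cells came from the paraventricular nucleus, a centre of neuroendocrine control, of C57Bl6/N mice aged 21 to 28 days. They were captured in a microfluidic chip, and their RNA was copied from an oligo-dT primer with spike-in RNAs added at lysis. All 9 cells are described as secretagogin-positive, after a calcium-binding protein encoded by Scgn. They are called cell 1 to cell 9, as in their titles. No animal is named for any of them, so they were treated as 1 sample, no p-value was computed, and intervals are exact 95% intervals for counting error only. No cell was treated, and no control group is part of the series.

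In mammals, mitochondrial DNA is transcribed from both strands into long precursors that span many genes. Transfer RNAs lie between most of the rRNA and mRNA genes and are cut out of the precursor by RNase P at the 5′ end and by the RNase Z enzyme ELAC2 at the 3′ end, which frees the RNAs on either side. The rRNAs form the mitochondrial ribosome, the mRNAs encode core subunits of complexes I, III, IV and V of the respiratory chain, and the tRNAs serve their translation. Mature mRNAs carry poly(A) tails, whereas mature tRNAs end in an added CCA. How a tRNA row gained molecules in a library primed on poly(A) was not tested. How well the priming caught each rRNA was not tested either, so ratios that involve rRNAs are ratios of counted molecules.

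The cells differed in depth from 1021 gene molecules in cell 1 to 26466 in cell 5, with a median of 9573. Spike-in molecules numbered 1962 to 2184 in cells 1 to 8 and 614 in cell 9, the only cell on its lane, so lane and cell cannot be told apart there. The 9 columns name 9 chip positions, of which 0 are shared. Scgn was detected in 5 cells, at 1 to 11 molecules. At least 3 markers of another cell type reached 2 molecules in 4 cells. In cell 4 these were 4 of 7 blood markers (2507 molecules, with Hbb-bt, Hbb-b1 and Hba-a1 at 0) and 7 of 8 endothelial markers (127 molecules). In cell 7 they were 7 of 8 endothelial markers (57 molecules, with Pecam1 at 0). In cell 8 they were 7 of 8 ependymal markers (338 molecules, with Rax at 0) and 4 of 7 astrocyte markers, and in cell 5 all 8 oligodendrocyte markers (382 molecules). The 10 neuron markers summed to 1 molecule in cell 1, 8 in cells 4 and 6, and 15 to 211 in the other cells. These sums take the largest row of each marker symbol in a cell. All globin rows together gave 3638 molecules in cell 4, more than the blood marker sum.

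The sequences below are those of the tRNAs on which the results turn, from the GENCODE M21 transcripts (GRCm38/mm10), written 5′ to 3′ on the strand of the gene with the anticodon in capitals. The first 3 had the most molecules in cell 4 among all tRNAs, mt-Tm was detected in every cell, and mt-Th, mt-Ts1 and mt-Ts2 had no molecule in any cell.
mt-Tc (cysteine, chrM:5192-5257, minus strand): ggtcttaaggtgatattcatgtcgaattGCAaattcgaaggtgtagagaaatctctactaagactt
mt-Tl2 (leucine, chrM:11671-11741, plus strand): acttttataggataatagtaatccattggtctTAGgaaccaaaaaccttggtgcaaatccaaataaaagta
mt-Tf (phenylalanine, chrM:1-68, plus strand): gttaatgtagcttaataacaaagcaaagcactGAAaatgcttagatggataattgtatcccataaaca
mt-Tm (methionine, chrM:3845-3913, plus strand): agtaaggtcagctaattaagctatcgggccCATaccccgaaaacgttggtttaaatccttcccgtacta
mt-Th (histidine, chrM:11546-11612, plus strand): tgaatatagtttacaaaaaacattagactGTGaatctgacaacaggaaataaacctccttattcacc
mt-Ts1 (serine, chrM:6870-6938, minus strand): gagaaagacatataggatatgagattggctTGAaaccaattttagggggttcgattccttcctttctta
mt-Ts2 (serine, chrM:11613-11671, plus strand): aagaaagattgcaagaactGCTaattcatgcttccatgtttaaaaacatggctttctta
These genes are short, 59 to 71 bases, and differ in place. mt-Tm ends at the base before mt-Nd2, and mt-Tl2 at the base before mt-Nd5. mt-Th and mt-Ts2 follow each other between mt-Nd4 and mt-Tl2, and mt-Ts2 and mt-Tl2 overlap by 1 base. mt-Tc lies among 4 consecutive tRNA genes of the minus strand, between mt-Tn and mt-Ty.

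Together the 37 RNAs gave 11163 of 91370 gene molecules, 12.2%. The mRNAs held 5458 of them, the rRNAs 2885 and the tRNAs 2820. The mitochondrial share was 19.9, 7.25, 9.37, 22.6, 7.23, 34.2, 13.4, 16.5 and 4.31% of gene molecules, taking cells 1 to 9 in turn. Cells 6 and 4 were thus highest and cell 9 lowest. The make-up of the share differed between the 2 highest cells. In cell 6, 63.9% of mitochondrial molecules were mRNA and 7.75% tRNA, while in cell 4, 19.3% were mRNA and 66.4% tRNA.

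**Figure D1:**
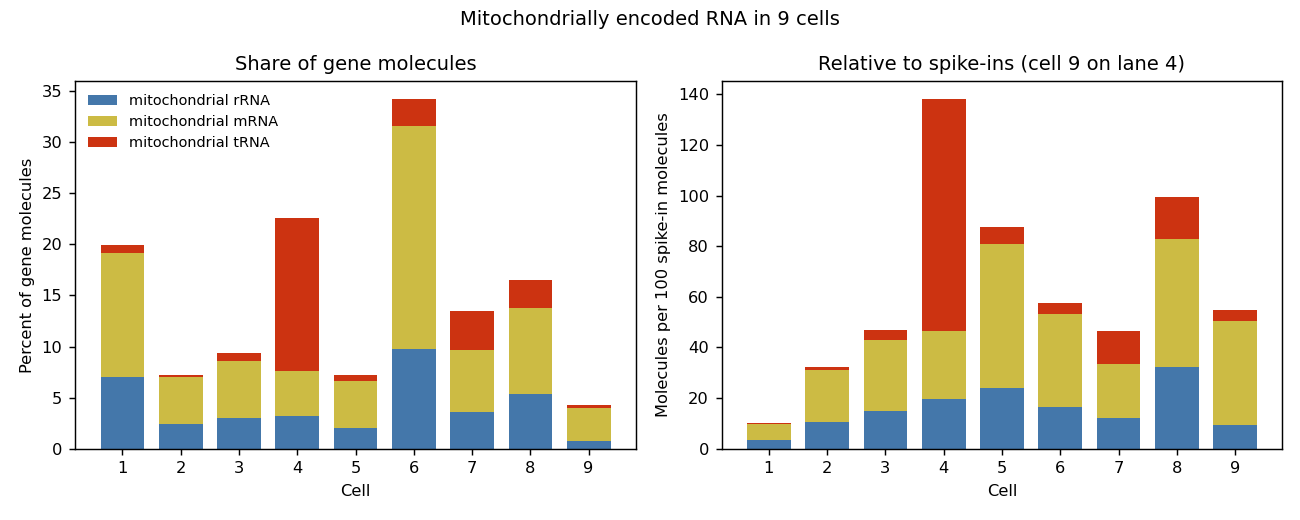
Stacked bars give the rRNA, mRNA and tRNA of mitochondrial origin in each of the 9 cells, as a percent of gene molecules (left) and per 100 spike-in molecules (right). Cell 6 is tallest on the left at 34.2%, and cell 4 is tallest on the right at 138, most of it tRNA.

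The order of the cells depended on what the molecules were set against. Relative to spike-ins, mitochondrial RNA was highest in cell 4, at 138 molecules per 100 spike-in molecules, followed by cell 8 at 99.6 and cell 5 at 87.6. Cell 6 ranked 4 of 9, at 57.6, and cell 1 was last, at 10.0. Nuclear molecules per 100 spike-in molecules were 111 in cell 6 and 40.4 in cell 1, the lowest of the series, against 299 to 1220 in the other 7 cells. The high mitochondrial share of cells 6 and 1 thus stood beside few nuclear molecules, and neither cell was among the 3 highest in mitochondrial RNA per spike-in. Less RNA in the cell and less RNA recovered from it cannot be told apart.

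The members were widely detected. Of the 37, 16 had a molecule in all 9 cells and 31 in at least 5, which is 83.8%, against 6.76% of all gene rows in at least 5 cells and 0.189% in all 9. With each cell thinned to the 1021 molecules of the shallowest, 18.3 of the 37 members (49.5%) and 0.449% of all gene rows were expected in at least 5 cells. Both rRNAs and 12 of 13 mRNAs were in every cell. Of the 22 tRNAs, 2 were in every cell (mt-Tm and mt-Ti), 17 in at least 5, 2 in 3 cells (mt-Ty and mt-Tk) and 3 in none. The 34 members with any molecule all had at least 9 over the 9 cells. Across all gene rows, 59.9% had no molecule in any cell.

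**Figure D2:**
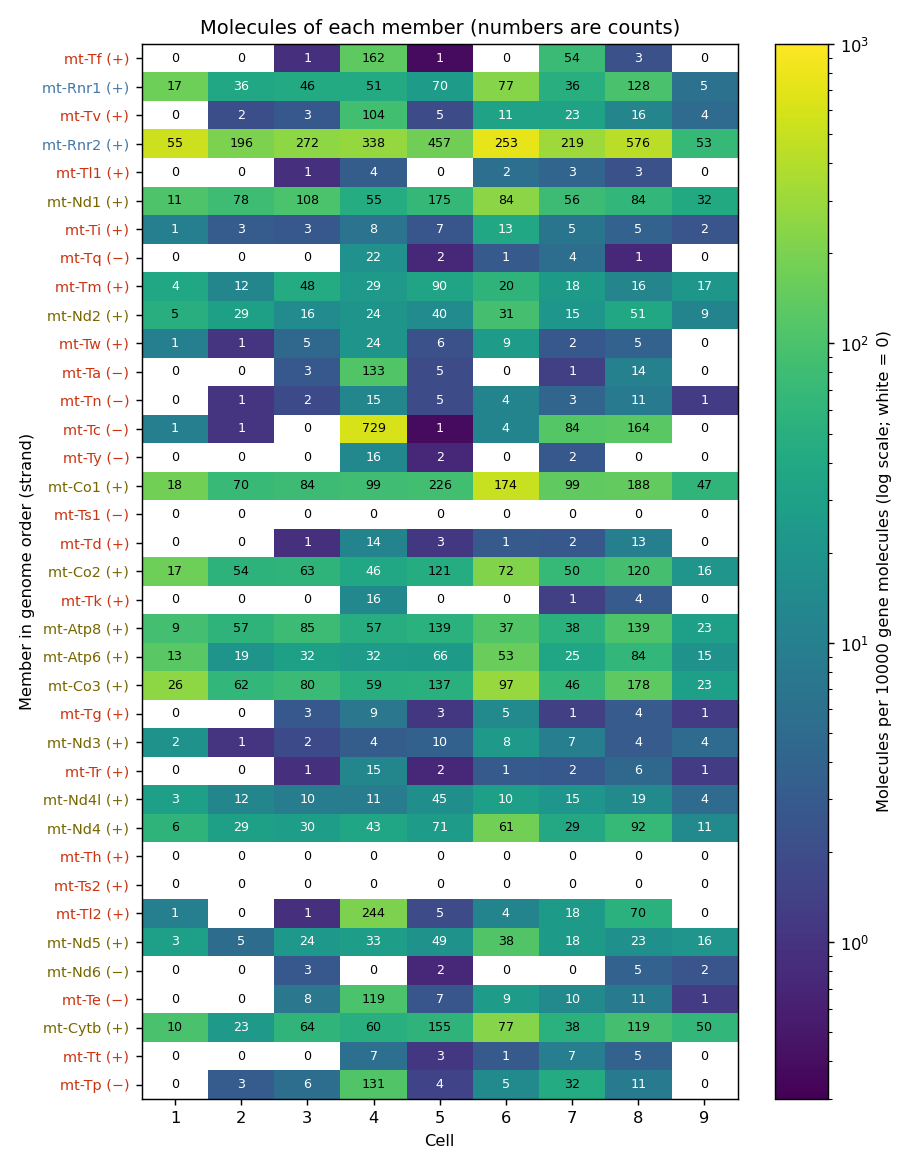
Each row is a mitochondrial RNA in genome order with its strand and each column a cell. Colour gives molecules per 10000 gene molecules on a log scale, white is 0, and the printed numbers are counts. The rRNA and mRNA rows are filled in every cell except mt-Nd6, while most tRNA rows are dark or white outside cell 4, where mt-Tc reaches 729 molecules.

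Among the rRNAs, mt-Rnr2, the RNA of the large mitochondrial ribosomal subunit, had 2419 molecules, 83.9% of the class, and mt-Rnr1, that of the small subunit, had the other 466. Levels are given per 10000 gene molecules of the cell. For mt-Rnr2 the levels of cells 1 to 9 in turn were 539, 205, 253, 281, 173, 746, 306, 437 and 67.7. The interval was 657 to 843 for cell 6 and 50.7 to 88.6 for cell 9. That of cell 9 lies below those of all other cells, and that of cell 6 overlaps with cell 1 alone. mt-Rnr1 ranged from 6.39 in cell 9 to 227 in cell 6, with a median of 42.9. In molecules per kilobase of gene, mt-Rnr2 had 1529 and mt-Rnr1 had 488.

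The ratio of mt-Rnr2 to mt-Rnr1 molecules was 3.24 in cell 1 (interval 1.85 to 5.95), 3.29 in cell 6 (interval 2.54 to 4.30) and 10.6 in cell 9 (interval 4.27 to 34.0), where it rests on 5 molecules of mt-Rnr1. In cell 8 there were 576 molecules of mt-Rnr2 and 128 of mt-Rnr1, and in the remaining 5 cells the ratio was 5.44 to 6.63. The interval of cell 6 lies below those of cells 3, 4 and 5 and overlaps those of the other cells, cell 9 included.

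The rRNA to mRNA ratio had a coefficient of variation of 27.9% over the cells, against 68.1% for the rRNA share and 74.8% for the mRNA share. Both shares also vary with the gene total of the cell, which cancels in the ratio. Without cell 9 that of the ratio was 18.4%, and without cell 6 that of the mRNA share was 46.5%. Cells 1 to 9 in turn had ratios of 0.585, 0.528, 0.529, 0.744, 0.426, 0.445, 0.585, 0.637 and 0.230. Cell 9 stood apart, with an interval of 0.170 to 0.307 that lies below those of the other 8 cells. Cell 4 had the highest ratio, with an interval of 0.651 to 0.850 that overlaps those of cells 1, 7 and 8. Cell 9 is also the cell of the other lane and of the lowest mitochondrial share, and the part of the lane in its ratio was not tested.

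**Figure D3:**
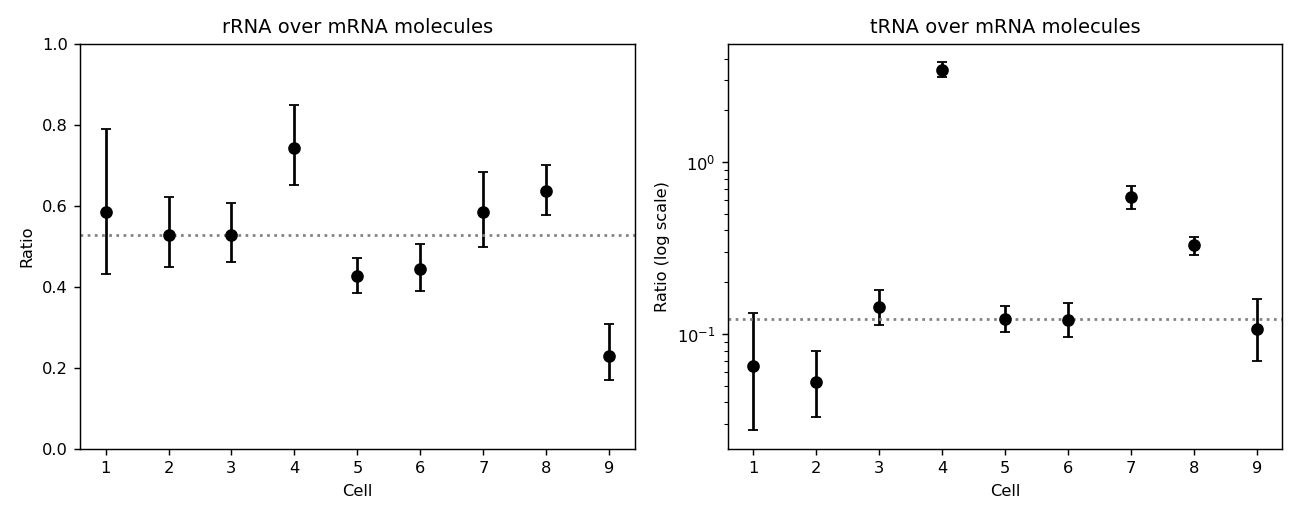
Points give the ratio of mitochondrial rRNA to mRNA molecules (left, linear axis) and of tRNA to mRNA molecules (right, log axis) in each cell, with exact 95% intervals and a dotted line at the median. Cell 9 lies lowest on the left at 0.230, and cell 4 lies highest on the right at 3.44.

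Of the 13 mRNAs, mt-Co1, which encodes the catalytic subunit of complex IV, had the most molecules, 1005 or 18.4% of the class. mt-Co3, also of complex IV, had 708, and mt-Nd1, of complex I, had 683. mt-Cytb, the cytochrome b of complex III, had 596, mt-Atp8, a small subunit of complex V, had 584, and mt-Co2, a copper-binding subunit of complex IV, had 559. The complex I genes mt-Nd4, mt-Nd2, mt-Nd5, mt-Nd4l and mt-Nd3 had 372, 220, 209, 129 and 42, and mt-Atp6, the proton channel subunit of complex V, had 339. Per kilobase of gene the order changed. mt-Atp8, the shortest mRNA gene at 204 bases, was then first with 2863 molecules per kilobase, mt-Co3 had 903, and mt-Co1, at 650.5, ranked 5 of 13. The values are counts of molecules, not of reads, so division by gene length need not give a truer order. mt-Atp8 also shares its mRNA with mt-Atp6, as given below, so its gene length is not that of its transcript.

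By complex, the 3 mRNAs of complex IV held 41.6% of the mRNA molecules, the 7 of complex I 30.5%, the 2 of complex V 16.9% and mt-Cytb alone 10.9%. The share of complex IV had its extremes in cell 9, at 34.1%, and cell 1, at 49.6%, around a median of 42.4%. For complex I the extremes were 24.4% (cell 1) and 35.1% (cell 2) around a median of 31.7%, and for complex V 12.1% (cell 6) and 20.2% (cell 8) around 17.0%.

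In levels, 12 of the 13 mRNAs and both rRNAs were highest in cell 6, against 10.9% of the 2063 gene rows with at least 9 molecules. No member was highest in cells 1, 2, 3, 5 or 9, which held the highest level of 7.76, 15.6, 11.1, 12.8 and 18.6% of those rows. The levels of mt-Co1 per 10000, taking cells 1 to 9 in turn, were 176, 73.1, 78.3, 82.3, 85.4, 513, 138, 143 and 60.05. The interval of cell 6, 440 to 595, lies above those of all other cells. Other mRNAs were less clear, such as mt-Nd4l, at 29.47 in cell 6 and 29.38 in cell 1, where it had 3 molecules. mt-Atp8 was at 109 in cell 6 and 105.5 in cell 8. The exception, mt-Nd6, was highest in cell 8, as were 9.31% of the gene rows. It had 5 molecules there, or 3.795 per 10000, whereas its count of 0 in cell 6 allows up to 8.84 if taken as at most 3 molecules. mt-Nd1 ranged from 40.9 in cell 9 to 248 in cell 6, with a median of 78.2, and mt-Cytb from 24.03 in cell 2 to 227 in cell 6, with a median of 59.65. Per spike-in molecule no mRNA and no rRNA was highest in cell 6. On that scale 5 mRNAs and both rRNAs were highest in cell 8, 4 mRNAs in cell 5 and 4 in cell 9, against 7.17%, 35.8% and 38.0% of the same gene rows.

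The mix of mRNAs was similar but not identical between cells. For mt-Co1 the shares of the mRNA molecules in cells 1 to 9 in turn were 14.6, 15.95, 14.0, 18.9, 18.3, 23.45, 22.7, 17.0 and 18.65%. The interval of cell 6, 20.4 to 26.7%, lies above those of cells 2, 3 and 8. mt-Cytb took 19.8% in cell 9 (interval 15.1 to 25.3%), above the intervals of all other cells, where it took 5.24 to 12.5%. mt-Nd1 took 18.0% in cell 3 and 17.8% in cell 2, but 7.59% in cell 8 (interval 6.10 to 9.32%), whose interval lies below those of cells 2, 3, 5 and 7. mt-Atp8 took 14.1% in cell 3 and 4.99% in cell 6 (interval 3.535 to 6.81%), whose interval lies below those of cells 2, 3, 4, 5 and 8. These intervals were drawn for each cell alone, with no adjustment for the 13 mRNAs and 9 cells.

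**Figure D4:**
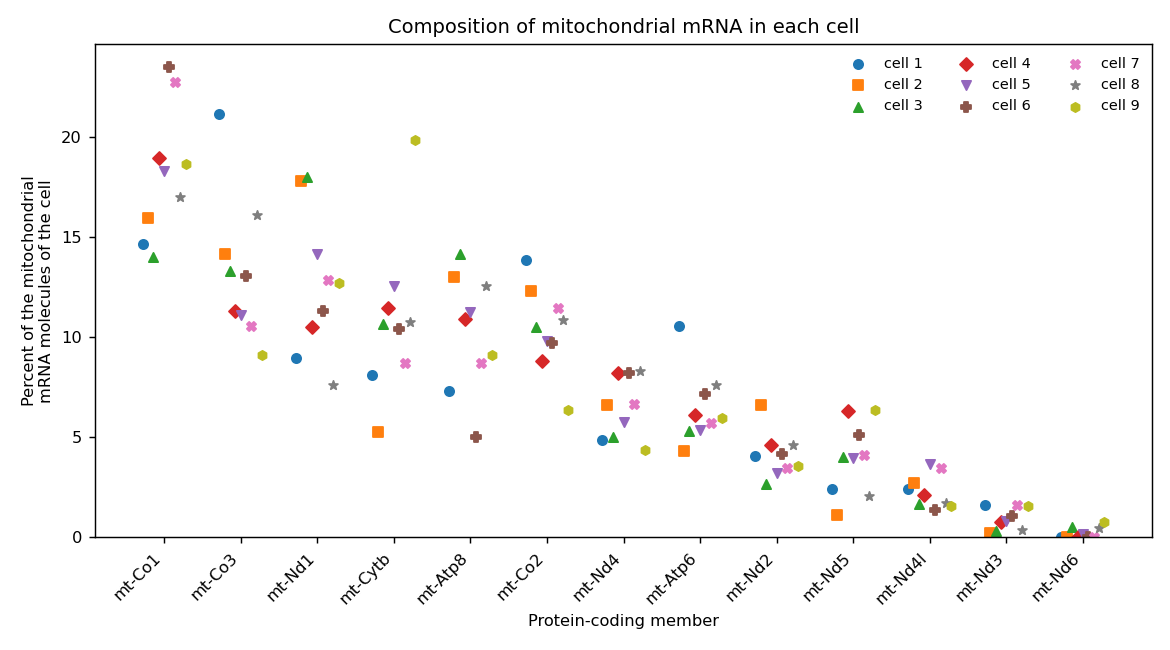
Each point is the percent of a cell's mitochondrial mRNA molecules that a protein-coding member took, with members ordered by molecules over all cells and 1 symbol per cell. mt-Co1, at 14.0 to 23.45%, leads in 5 of the 9 cells, and mt-Cytb in cell 9 lies above its other points at 19.8%.

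Pairs of mRNA genes overlap on the genome. mt-Atp8 (chrM:7766-7969) and mt-Atp6 (chrM:7927-8607) share 43 bases and are known to be carried by 1 bicistronic mRNA, as are mt-Nd4l and mt-Nd4, which share 7 bases. mt-Atp8 molecules outnumbered mt-Atp6 in 7 cells, at ratios of 3.00, 2.66, 1.78, 2.11, 1.52, 1.65 and 1.53 for cells 2, 3, 4, 5, 7, 8 and 9 in turn. The ratio was 0.692 in cell 1 (interval 0.261 to 1.75) and 0.698 in cell 6 (interval 0.446 to 1.08). The interval of cell 6 lies below those of cells 2, 3, 4, 5 and 8. Cells 1 and 6 are also the cells with the fewest nuclear molecules per spike-in and the lowest mt-Rnr2 to mt-Rnr1 ratios, and the part of RNA quality in these ratios was not tested. mt-Nd4l had fewer molecules than mt-Nd4 in every cell, at ratios of 0.164 to 0.634. Since each pair shares 1 transcript, how molecules were divided between the rows depends on the counting, whose rule is not known here.

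mt-Nd6, a complex I gene and the only mRNA gene on the minus strand, was the rarest mRNA with 12 molecules, in 4 cells. Cell 8 held 5, cell 3 held 3, and cells 5 and 9 held 2 each. In human cells the mRNA of this gene is known to lack a poly(A) tail. It overlaps mt-Nd5 of the other strand by 14 bases.

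Most tRNA molecules lay in 1 cell, unlike those of the other classes. Taking cells 1 to 9 in turn, the tRNA molecules numbered 8, 23, 86, 1801, 151, 90, 272, 362 and 27. Cell 4 thus held 63.9% of all tRNA molecules, against 9.58% of the mRNA and 13.5% of the rRNA molecules. As a share of gene molecules, tRNA took 15.0% in cell 4 (interval 14.3 to 15.6%). The share was 3.80, 2.75 and 2.65% in cells 7, 8 and 6, and 0.240 to 0.801% in the other 5 cells. The total of cell 4 includes 3638 globin molecules, and without them its tRNA share was 21.5%. Over the cells, the coefficient of variation was 156% for the tRNA share, 74.8% for the mRNA share and 68.1% for the rRNA share. Without cell 4 that of the tRNA share was 91.15%, against 73.8 and 70.4% for the other shares. Without cell 6 the values were 165, 46.5 and 57.9%.

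Within the mitochondrial RNAs, which leaves the nuclear total aside, the tRNA to mRNA ratio was 3.44 in cell 4 (interval 3.12 to 3.80), 0.624 in cell 7 (interval 0.534 to 0.728) and 0.327 in cell 8 (interval 0.290 to 0.369). In cells 1, 2, 3, 5, 6 and 9 it was 0.0650, 0.0524, 0.143, 0.122, 0.121 and 0.107, and none of their intervals reached above 0.180. The intervals of cells 4, 7 and 8 overlap with no other. At least 3 endothelial markers reached 2 molecules in cells 4 and 7, and at least 3 ependymal ones in cell 8, as given above. Cell 4 also had blood markers and cell 8 astrocyte markers. In cells 5 and 6, 1 endothelial marker each reached 2 molecules. So did 1, 2 and 1 ependymal markers in cells 3, 4 and 5. Cell 5, with all 8 oligodendrocyte markers, had the median ratio of the 9 cells. The part of other cell types in the tRNA molecules was not tested.

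The number of tRNAs detected differed between cells, which also differ in depth. In cells 4, 7 and 8 there were 19, 19 and 18 of 22 tRNAs, in cells 5, 6 and 3 there were 17, 15 and 14, and in cells 2, 9 and 1 there were 7, 7 and 5. With each cell thinned to 1021 molecules, the expected numbers were 15.2, 10.5, 8.98 and 10.6 for cells 4, 7, 8 and 6, and 1.84 to 5 for the others. At equal depth, cell 6 was thus level with cell 7.

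mt-Tc, the cysteine tRNA shown above, had the most molecules when all cells are summed, 984 or 34.9% of the class. It was the leading tRNA in cells 4, 7 and 8, whereas mt-Tm led in the other 6 cells. As a mean of the shares in each cell, mt-Tc took 15.4% and mt-Tm 35.05%. Cell 4 held 729, cell 8 held 164, cell 7 held 84, cell 6 held 4, and cells 1, 2 and 5 held 1 each, with none in cells 3 and 9. Its level was 606 per 10000 in cell 4 (interval 563 to 652), 124 in cell 8 (interval 106 to 145), 117 in cell 7 (interval 93.6 to 145) and 0.378 in cell 5, the deepest cell. Only in cell 4 was it above mt-Co1, which had 99 molecules there.

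mt-Tl2, the leucine tRNA for CUN codons, had 343 molecules, with 244 in cell 4, 70 in cell 8, 18 in cell 7 and 0 to 5 in the other cells. mt-Tf, the phenylalanine tRNA, had 221, with 162 in cell 4, 54 in cell 7, 3 in cell 8, 1 each in cells 3 and 5 and none in the other 4 cells. These tRNAs were not in fixed proportion between the cells. mt-Tf took 19.9% of tRNA molecules in cell 7 (interval 15.3 to 25.1%), 8.995% in cell 4 (interval 7.71 to 10.4%) and 0.829% in cell 8 (interval 0.171 to 2.40%). mt-Tl2 took 19.3% in cell 8 (interval 15.4 to 23.8%), 13.55% in cell 4 (whose interval ends at 15.2%) and 6.62% in cell 7 (interval 3.97 to 10.3%). The intervals of the 3 cells do not overlap for either tRNA, and the order of the 3 cells is opposite.

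The other tRNAs with over 100 molecules in cell 4 were those for alanine, proline, glutamate and valine. mt-Ta had 133 in cell 4, 14 in cell 8 and 0 to 5 in the other cells. mt-Tp had 131 in cell 4, 32 in cell 7 and 0 to 11 in the other cells. mt-Te had 119 in cell 4 and 0 to 11 elsewhere, and mt-Tv, which lies between the rRNA genes, had 104 in cell 4, 23 in cell 7, 16 in cell 8 and 0 to 11 elsewhere. Together with mt-Tc, mt-Tl2 and mt-Tf these are 7 of 22 tRNAs. A further 10 tRNAs had fewer than 50 molecules in all. The lowest was mt-Tl1, the other leucine tRNA, with 13, followed by mt-Ty, for tyrosine, with 20, and mt-Tk, for lysine, with 21.

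Of the 19 tRNAs with at least 9 molecules, 13 had their highest level in cell 4, 5 in cell 6 (mt-Tl1, mt-Ti, mt-Tm, mt-Tw and mt-Tg) and 1 in cell 7 (mt-Tt), which held the highest level of 8.82% of gene rows. Cell 4 held the highest level of 5.09% of the 2063 gene rows. In 11 of the 19 more than 50% of the molecules lay in cell 4, while 25.3% of those gene rows had more than 50% of their molecules in any 1 cell. Per spike-in molecule 17 of the 19 were highest in cell 4, against 4.56% of gene rows. On that scale mt-Tm was highest in cell 5 and mt-Ti in cell 6, which held the highest count of 1.41% of gene rows.

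mt-Tm, the methionine tRNA, and mt-Ti, the isoleucine tRNA, were the only tRNAs detected in every cell, a pair picked after their values were seen. For mt-Ti this rests on small counts, and mt-Tv, mt-Tw and mt-Tn were each detected in 8 cells. Taking cells 1 to 9 in turn, mt-Tm had 4, 12, 48, 29, 90, 20, 18, 16 and 17 molecules. Its level ran from 12.1 per 10000 in cell 8 to 58.9 in cell 6, with a median of 25.1 and 24.1 in cell 4. It made up 4 of 8 tRNA molecules in cell 1 and 52.2 to 63.0% of them in cells 2, 3, 5 and 9, but 22.2% in cell 6 and 1.61 to 6.62% in cells 4, 7 and 8. mt-Ti had 1 to 13 molecules in every cell, the most in cell 6, and 8 in cell 4. Both lie upstream of mt-Nd2 on the plus strand, separated by mt-Tq of the minus strand, which had 22 of its 30 molecules in cell 4. The ratio of mt-Tm to the adjoining mt-Nd2 was 3.00 in cell 3 and 2.25 in cell 5, and 0.314 in cell 8, so the neighbours did not keep a fixed proportion.

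By strand, the 8 tRNA genes of the minus strand gave 1589 molecules and the 14 of the plus strand gave 1231. The order rests on cell 4, without which the minus strand had 424 molecules and the plus strand 595. The minus-strand share of tRNA molecules was 64.7% in cell 4, 58.6% in cell 8 and 136 of 272 molecules in cell 7, and 7.41 to 25.6% in the other 6 cells. Without mt-Tc the shares of cells 4, 8 and 7 were 40.7, 24.2 and 27.7%, and those of the others 0 to 22.1%. In 5 of those 6 cells, all but cell 6, most plus-strand tRNA molecules were of mt-Tm. All 7 minus-strand tRNAs with at least 9 molecules had their highest level in cell 4, as did 6 of 12 on the plus strand. For mt-Tn this was a near tie, at 12.48 per 10000 in cell 4 and 11.79 in cell 6. Against nuclear gene molecules mt-Tn was higher in cell 6. Whether the counting used strand is not known here, so molecules of a minus-strand tRNA and of plus-strand precursor RNA across the same place cannot be told apart.

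No molecule of mt-Ts1, mt-Th or mt-Ts2, the tRNAs for serine and histidine shown above, was counted in any cell. Taken as at most 3 molecules, a count of 0 in 91370 gene molecules allows up to 0.328 per 10000 over the 9 cells. In cell 4, where most other tRNAs were highest, it allows up to 2.50 per 10000. mt-Tl2, which begins on the last base of mt-Ts2, had 244 molecules in that cell.

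Copies of mitochondrial sequence in the nuclear genome can share reads with the members. By alignment, 13 of the 37 had a nuclear transcript in GENCODE M21 that matched at least 50% of their length at 90% identity or more, among them mt-Co2, mt-Co3, mt-Atp6, mt-Nd4 and mt-Nd4l at 100%. None of the 14 nuclear genes has a row under its GENCODE symbol. How reads with several matches were placed is not known here, and the levels of these 13 members are uncertain to that extent. The tRNAs among them were mt-Tl1, mt-Tn and mt-Tt, none of which had more than 42 molecules. Only annotated transcripts were searched, so nuclear copies outside them, of other tRNAs as well, would not have been found.

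The respiratory chain is built from mitochondrial and nuclear subunits, and the proportion of their transcripts differed widely between cells. The 99 nuclear genes of this chain in the table (symbols starting with Nduf, Uqcr, Atp5 or Cox and a digit, with Cyc1 and Cycs, a rule that also takes in some assembly factors) had 3272 molecules, and 68 (68.7%) were detected in at least 5 cells, against 6.76% of all gene rows. Mitochondrial mRNA against nuclear respiratory chain molecules numbered, for cells 1 to 9 in turn, 123 against 1, 439 against 523, 601 against 392, 523 against 104, 1236 against 1361, 742 against 19, 436 against 84, 1106 against 529 and 252 against 259. The ratio was 0.839 to 2.09 in cells 2, 3, 5, 8 and 9, 5.03 and 5.19 in cells 4 and 7, and 39.1 in cell 6. In cell 1 it rests on 1 nuclear molecule. Cells 2, 3, 5, 8 and 9 were also those in which Scgn was detected, by 1 molecule only in cells 2, 5 and 9. Of the cells without Scgn, cells 1, 6 and 7 were the shallowest of the series, at 1021, 3393 and 7160 gene molecules. Cell 4, also without Scgn, had 12024, above the median of the series. As a share of nuclear molecules alone, the nuclear genes took 3.46 to 5.89% in cells 2, 3, 5, 8 and 9. They took 1.12 and 1.36% in cells 4 and 7, 0.852% in cell 6 and 0.122% in cell 1. Without its globin molecules the share in cell 4 was 1.83%.

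**Figure D5:**
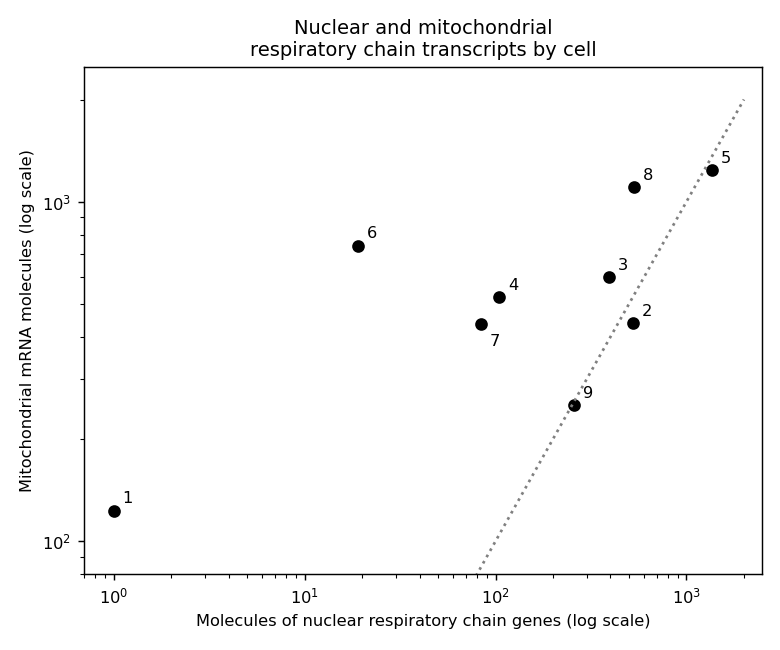
Molecules of mitochondrial mRNA (vertical, log axis) against molecules of nuclear respiratory chain genes (horizontal, log axis), with 1 numbered point per cell and a dotted line of equal numbers. Cells 2, 5 and 9 lie near the line, and cells 6 and 1 lie far to its left with 19 and 1 nuclear molecules.

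Nuclear genes that make and process mitochondrial RNA were counted as well, and their share in 5 or more cells was near that of all gene rows. Of 41 listed symbols with a row, 15 had no molecule (36.6%, against 59.9% of all gene rows), 24 were seen in 1 to 4 cells and 2 in 5 or more (4.88%, against 6.76%), with 91 molecules in all. Slirp, which binds and stabilises mitochondrial mRNAs, had 14 molecules in 5 cells, and Grsf1, an RNA-binding protein of mitochondrial RNA granules, had 7 in 5 cells. Mterfd1, of the family of mitochondrial transcription termination factors, and Mtpap, the mitochondrial poly(A) polymerase, had 7 each in 3 cells. The list had 7, 31 and 12 molecules in cells 4, 5 and 8. In cells 1 and 6 it had 0 and 1.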

How the data were processed

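The deposited table gives, per the labels, counts of RNA molecules for each gene row and 92 spike-in rows in 9 cells. The submitters' processing notes name Bowtie and mm10. The aligner's version, the strand rule and how molecules were collapsed are not given in the sources used here. Levels were computed per 10000 gene molecules, with spike-ins left out of the total, and depth was 1021 to 26466 gene molecules per cell. Intervals are exact 95% Poisson (levels) and Clopper-Pearson (shares and ratios) intervals, and a count of 0 was given a floor of 3 molecules. Both cover counting error only. No p-value was computed, because the cells form 1 sample, and cells far from the rest were picked out by Dixon's criterion as a description. No doublet caller was run on 9 cells.

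The genes named are the rRNAs, the 13 mRNAs, each tRNA with at least 9 molecules and the 4 most abundant listed nuclear genes for mitochondrial RNA. The 3 tRNAs with no molecule are named as well. The members and lists were chosen with earlier results of these data known. Positions and sequences are from GENCODE M21, and nuclear copies were found with blastn 2.17.0. Python 3.11.15, pandas 2.3.3 and scipy 1.17.1 were used, and the calculations were tested on simulated data. The alternatives changed the denominator, the cells, the detection threshold, the depth, the minimum count, the members of a class and the use of gene length.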

Additional observations from a re-analysis of the deposited data

Results flagged for a closer look

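Values of single cells that lay far from the other 8 were looked for by comparing the gap to the nearest cell with the whole range (Dixon's criterion at its 95% critical value for 9 samples). It picked out 24 of 61 measures, 12 of them for cell 4, 8 for cell 6, 2 for cell 9 and 1 each for cells 1 and 2. Chance flags about 1 in 20 groups of normally distributed values. Whether these levels, shares and ratios follow that distribution was not tested, and all 24 flags were for a highest value. The measures also share molecules and totals, so the number of flags is not set against a number by chance.

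In cell 4 the tRNA share of gene molecules was 15.0% and the tRNA to mRNA ratio 3.44. Its levels per 10000 were 606.3 for mt-Tc, 202.9 for mt-Tl2, 110.6 for mt-Ta, 108.9 for mt-Tp, 98.97 for mt-Te, 86.49 for mt-Tv, 18.3 for mt-Tq, 13.31 each for mt-Ty and mt-Tk, and 12.48 for mt-Tr.

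In cell 6 the mRNA share was 21.87%, against 12.05% in the next cell. Its levels per 10000 were 512.8 for mt-Co1, 247.6 for mt-Nd1, 226.9 for mt-Cytb, 179.8 for mt-Nd4, 112.0 for mt-Nd5, 91.36 for mt-Nd2 and 38.31 for mt-Ti.

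In cell 9, mt-Cytb took 19.84% of the mRNA molecules, and mt-Rnr2 exceeded mt-Rnr1 by a ratio of 10.6 that rests on 5 molecules of mt-Rnr1. In cell 2, mt-Nd2 took 6.61% of the mRNA molecules. In cell 1 the ratio of mitochondrial mRNA to nuclear respiratory chain molecules was 123, with 1 nuclear molecule.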

How the results depend on the processing

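Over 106 recomputed values of the main results, 95 stayed within the spread between cells or within 1.5 times the count, and 11 moved. A reversal was not looked for among them, and the spread between cells is a wide bound. For instance, the tRNA median counts as staying at 0.8015% and at 4.462 per 100 spike-in molecules. Of 114 other recomputed values, 86 stayed, 26 moved and 2 reversed, both for the minus-strand share of tRNA molecules. Per 100 spike-in molecules, the medians over cells were 14.85 for rRNA, 28.06 for mRNA and 54.89 for all mitochondrial RNA, a unit other than percent. On that scale 1 member was highest in cell 6 and 7 in cell 8. With a minimum of 45 molecules, 7 members were highest in cell 4 and 0 in cell 8, since fewer members were counted. Without mt-Rnr2 the median rRNA to mRNA ratio was 0.0826. With each cell thinned to 1021 molecules, 18.3 members were expected in at least 5 cells. Per kilobase, mt-Co1 took 7.99% and mt-Atp8 35.2% of the mRNA class, a division by length that counts of molecules may not call for.

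Leaving out each cell in turn, the median share was 11.4 to 15.0% for all mitochondrial RNA, 3.10 to 3.40% for rRNA, 5.14 to 5.84% for mRNA and 0.792 to 1.73% for tRNA. The median ratio was 0.529 to 0.557 for rRNA over mRNA and 0.122 to 0.133 for tRNA over mRNA, and 26 to 31 members were detected in at least 5 cells. Without the 4 cells that carry markers of other types, the median tRNA share was 0.784%. An alternative chosen after seeing the data left out mt-Tm and mt-Ti, and gave a median tRNA to mRNA ratio of 0.0582. The minus-strand share of all tRNA molecules, 56.35%, was 41.6 to 58.6% when a cell was left out, lowest without cell 4, and 32.95% without mt-Tc, both also chosen after seeing the data. Summing several rows of a symbol was not run, since no member has several. No paired analysis was possible because all cells form 1 group. Depth limits cell 1 most, where a count of 0 allows up to 29.4 molecules per 10000.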
